A study of Mus musculus with 2 samples.

Results

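The 9 genes of the mouse EphA receptors (Epha1, Epha2, Epha3, Epha4, Epha5, Epha6, Epha7, Epha8 and Epha10) were searched for HIRA peaks, taking every peak of the deposited list that overlapped the gene body or lay within 50 kb of it. Of the 6624 peaks of the list, 6 met this rule, and 5 of these lay inside a gene body. Gene bodies were those of GENCODE release M21 on mm10, and the genes were taken by name from 21938 protein-coding genes. The list came from 1 HIRA ChIPseq library of wild type CD1 hearts of mouse embryos at E12.5, in which 30 hearts were pooled, cross-linked with EGS and formaldehyde and precipitated with the WC15 antibody. Input chromatin was the control against which the authors called the peaks. There is no replicate pool, so the error between pools cannot be estimated, and the peaks carry no height. All intervals below cover counting error only. Because the hearts were used whole, the peaks cannot be assigned to a cell type of the heart.

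Eph receptors are the largest family of receptor tyrosine kinases, and they bind ephrins on the surface of neighbouring cells. Receptors of the A class mainly bind ephrin-A ligands, which a lipid anchor holds in the membrane, and signals pass into both cells, where they guide attraction, repulsion and the sorting of cells. Epha3 is known in the heart for its part in the growth of the endocardial cushions, from which valves and septa form. HIRA is a chaperone that loads the replication-independent histone H3.3 into nucleosomes.

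The sequences of 5 peaks are shown, because the peaks held different kinds of sequence. Each is the plus strand of GRCm38.p6 (mm10), read 5′ to 3′, and the capitals mark the longest unbroken run of purines (A and G) or of pyrimidines (C and T) in the peak. For the wide Epha5 peak the first 300 bases are given. In order, the positions were chr16:63833401-63833647, chr1:77396975-77397168, chr5:84336571-84336870 (of a peak that ended at 84336980), chr16:60464916-60465118 and chr6:42353815-42353973.
Epha3, intron 2: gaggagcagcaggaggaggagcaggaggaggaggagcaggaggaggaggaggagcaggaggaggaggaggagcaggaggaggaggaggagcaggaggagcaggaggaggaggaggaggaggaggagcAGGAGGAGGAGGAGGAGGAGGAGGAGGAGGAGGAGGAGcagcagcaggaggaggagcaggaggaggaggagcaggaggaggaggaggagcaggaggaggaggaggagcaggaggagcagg
Epha4, intron 8: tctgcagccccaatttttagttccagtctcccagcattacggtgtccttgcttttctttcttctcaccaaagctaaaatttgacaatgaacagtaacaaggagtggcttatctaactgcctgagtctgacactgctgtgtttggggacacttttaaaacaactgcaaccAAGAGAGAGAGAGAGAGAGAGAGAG
Epha5, intron 2: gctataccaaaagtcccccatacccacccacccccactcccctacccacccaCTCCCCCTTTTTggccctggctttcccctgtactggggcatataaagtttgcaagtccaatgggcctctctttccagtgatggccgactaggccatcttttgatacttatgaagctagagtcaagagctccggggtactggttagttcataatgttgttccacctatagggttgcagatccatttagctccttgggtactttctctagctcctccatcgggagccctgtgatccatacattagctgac
Epha6, intron 2: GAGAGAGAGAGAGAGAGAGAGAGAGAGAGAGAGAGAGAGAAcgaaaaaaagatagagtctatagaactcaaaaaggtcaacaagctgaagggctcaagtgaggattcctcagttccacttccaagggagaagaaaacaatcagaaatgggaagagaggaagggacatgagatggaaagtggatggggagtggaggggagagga
Epha1, beyond the 3′ end: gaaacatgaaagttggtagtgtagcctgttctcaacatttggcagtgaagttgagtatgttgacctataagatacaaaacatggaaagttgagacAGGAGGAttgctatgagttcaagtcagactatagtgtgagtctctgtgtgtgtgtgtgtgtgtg

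HIRA peaks in the EphA genes lay in members of more than 100 kb. Of the 9 genes, 4 (44.4%) held a peak in the body, against 8.9% of protein-coding genes of all lengths, and 5 had one in the body or within 50 kb, against 29.4%. Epha3 held 2 peaks, Epha4, Epha5 and Epha6 held 1 each, and Epha1, Epha2, Epha7, Epha8 and Epha10 held 0. All 5 peaks were in introns. Epha7, slightly longer than Epha4, was the only EphA gene of more than 100 kb without a peak. A count of 0 has an exact Poisson 95% upper limit of 3.69 peaks. The 4 EphA genes of less than 50 kb had no peak in the body, as for most genes of that length (3.37% held one), and 1 of them, Epha1, had a peak within 50 kb.

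**Figure D1:**
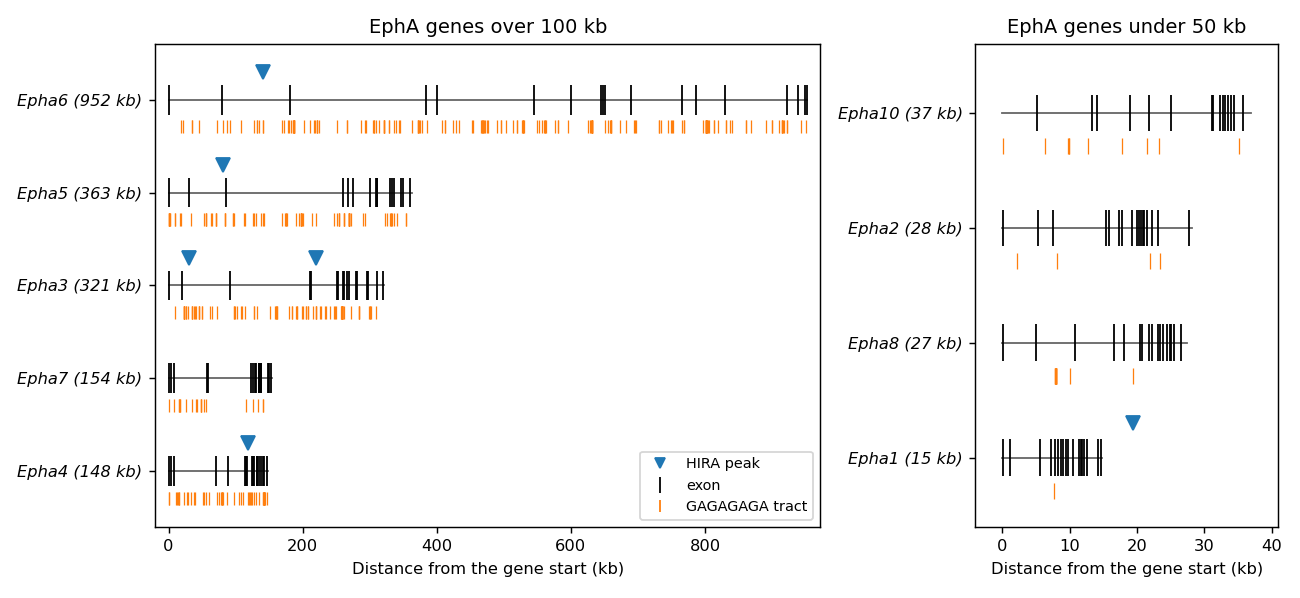
Each EphA gene is drawn from its start (0 kb, left) in the direction of transcription, with exons as black ticks, tracts of overlapping GAGAGAGA matches as orange ticks and HIRA peaks as blue triangles, and the short genes have their own axis. Peaks sit in introns of Epha3 (2), Epha4, Epha5 and Epha6 (1 each), the Epha1 peak lies 4.51 kb past the end of the gene, and nearly all of the orange tracts have no peak above them.

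Epha3 (ENSMUSG00000052504.7) lies on the minus strand at chr16:63543534-63864175 and spans 320.6 kb in 17 exons. The first peak, at chr16:63833401-63833647, was in intron 2, an intron of 70.5 kb, 30.7 kb from the start of the gene and 8.27 kb from the nearest exon. This stretch also belongs to Gm41466, a long non-coding RNA of the RefSeq annotation. The other, of 182 bases, was in intron 5, of 39.2 kb, 219.9 kb from the start and 7.89 kb from the nearest exon. Intron 3, the longest of the gene at 119.3 kb, held no peak. The peaks nearest to Epha3 on either side of the gene were 82.5 kb and 192.7 kb away.

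Epha4 (ENSMUSG00000026235.14), a receptor best known from axon guidance, lies on the minus strand at chr1:77367185-77515088 and spans 147.9 kb. Its peak, at chr1:77396975-77397168, was in intron 8, of 8.40 kb, 118.0 kb from the start, or 79.8% of the way along the gene. A short transcript of Epha4, which GENCODE labels as a retained intron and which holds part of intron 8, covers the peak, so the peak is intronic in the coding transcript and exonic in that one. Outside the gene the nearest peaks were 308.8 kb and 325.1 kb away.

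Epha5 (ENSMUSG00000029245.16), known mainly from the developing brain, lies on the minus strand at chr5:84054761-84417382 and spans 362.6 kb. Its single peak, at chr5:84336571-84336980, was in intron 2, of 54.3 kb, 80.6 kb from the start and 4.68 kb from the nearest exon. At 410 bases it was the widest of the 6 and the 127th widest of the list. Epha6 (ENSMUSG00000055540.15) is the longest EphA gene, at chr16:59653483-60605531 on the minus strand, with 952.0 kb. Its single peak, at chr16:60464916-60465118, was in intron 2, of 101.1 kb, 140.5 kb from the start and 18.5 kb from the nearest exon. No other peak lay within 399.8 kb of Epha6 outside the gene. Epha6 and Epha3 are both on chromosome 16, separated by 2.94 Mb that held 3 peaks, or 1.02 per Mb.

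Epha1 (ENSMUSG00000029859.6), a receptor of epithelial cells, spans 14.8 kb on the minus strand at chr6:42358487-42373268. The peak at chr6:42353815-42353973 was 4.51 kb past its 3′ end and 19.3 kb from its start. That position is inside intron 5 of Zyx (ENSMUSG00000029860.16), which encodes the focal adhesion protein zyxin and lies on the plus strand at chr6:42349630-42360213, so the peak counts for Epha1 only through the 50 kb window.

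The other EphA genes were at a distance from any peak. Epha7 (ENSMUSG00000028289.12, chr4:28813131-28967499, plus strand), a receptor with roles in the nervous system, spans 154.4 kb, and its nearest peak was 148.0 kb before its start. Epha2 (ENSMUSG00000006445.3, chr4:141301240-141329384, plus strand), found in many epithelia and in the lens, had its nearest peak 92.4 kb away. For Epha10 (ENSMUSG00000028876.7, chr4:124880899-124917800, plus strand), whose kinase domain is held to be inactive, the distance was 196.8 kb. For Epha8 (ENSMUSG00000028661.8, chr4:136929419-136956816, minus strand) it was 476.8 kb, the largest of the 9. Protein-coding genes of less than 50 kb had a median distance of 126.7 kb to the nearest peak, so Epha1 and Epha2 were nearer than that median and Epha8 and Epha10 farther. For genes of 50 to 200 kb the median was 90.7 kb, and Epha7 was farther. No EphA gene had a peak closer than 19.3 kb to its start.

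To set the peaks against gene length, the density of the whole list was used, 6624 peaks in 2647.52 Mb of sequence without N, or 2.502 per Mb. The 9 EphA bodies covered 2.04 Mb and held 2.45 peaks per Mb (exact Poisson 95% interval 0.794 to 5.71). Their length at the density of the list gives 5.12 peaks, against the 5 found, a ratio of 0.977 (0.317 to 2.28). The number of peaks in the EphA genes was thus close to what their length gives, within a wide interval. With the 50 kb on each side of the genes, 6 peaks were found where the length gives 7.37, a ratio of 0.814.

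Gene by gene the counts lay above or below what length gives, but the exact Poisson interval of every count held the number given by length. Epha6 at 1.05 per Mb (0.0266 to 5.85) had 1 peak where its length gives 2.38. Epha3 at 6.24 per Mb (0.755 to 22.5) had 2 where its length gives 0.802. Epha4 at 6.76 per Mb (0.171 to 37.7) had 1 where its length gives 0.370, and Epha5 at 2.76 per Mb (0.0698 to 15.4) had 1 for 0.907. Epha7, which is close to Epha4 in length, had 0 where its length gives 0.386. The intervals of these genes overlapped in every pair, so the order of their densities was not resolved by so few peaks. Without Epha6, the longest gene, the ratio of the other 8 was 1.46 (4 peaks where length gives 2.73). Without Epha3 it was 0.695 (3 peaks where length gives 4.31).

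Genes of the same length gave the reference for each count. Long genes held peaks more often than short ones, so the share over all lengths is no measure for a family with several long members. Of genes under 50 kb, 3.37% held a peak, and 0 of the 4 EphA genes of that class did. Of genes of 50 to 200 kb, 19.9% held a peak, and of Epha4 and Epha7 1 did. Of genes of 200 to 500 kb, 50.9% held a peak, 16.8% held 2 or more as Epha3 did, and 34.1% held 1 as Epha5 did. Of genes over 500 kb, 84.8% held a peak, with a median of 2, and 45.7% held at most 1 as Epha6 did.

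**Figure D2:**
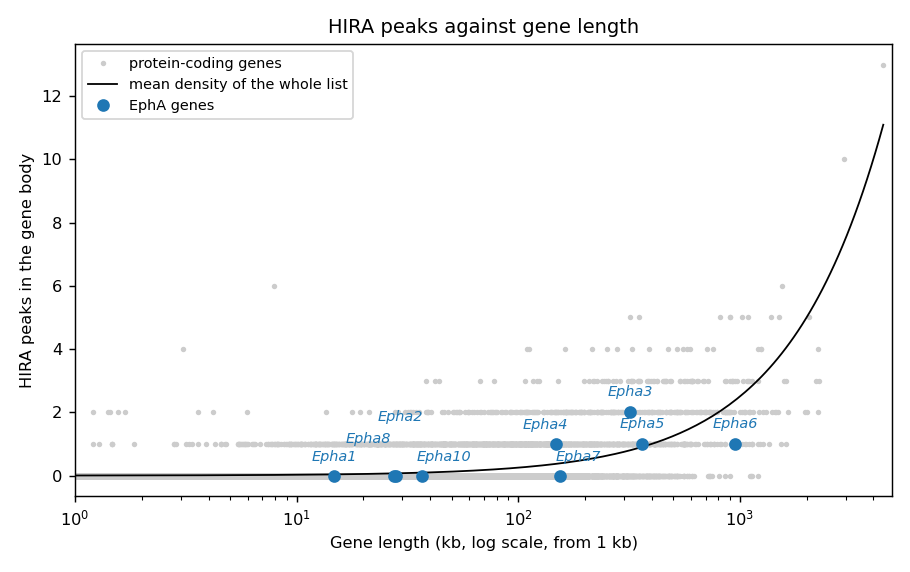
Peaks in the gene body (vertical axis) are plotted against gene length in kb (log scale, genes of 1 kb and more) for protein-coding genes in grey and the 9 EphA genes in blue, with the count that the mean density of the list gives as a black line. Epha3 and Epha4 lie above the line, Epha5 close to it, and Epha6 below it, with 1 peak where the line is at 2.38.

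Soft-masked bases, the lower-case letters by which the assembly marks repeats, made up 30.8% of the EphA bodies, against 27.5% of all protein-coding bodies and 36.4% of the genome. The share tended to be larger in the longer genes, but not strictly. It was 8.64% in Epha8, 11.6% in Epha1, 15.8% in Epha2, 19.8% in Epha7, 21.9% in Epha4, 25.9% in Epha3, 29.3% in Epha10, 31.1% in Epha5 and 37.0% in Epha6. Epha10, at 36.9 kb without a peak, had a larger masked share than Epha3 and Epha4, which held peaks. Within their length classes Epha6 was at percentile 84.3 of masked share, Epha5 at 73.7, Epha3 at 51.4, Epha4 at 26.4 and Epha7 at 17.2. When the peaks were set against soft-masked bases in place of length, 4.33 were given for the 9 genes and the ratio was 1.15. Against unmasked bases it was 0.899. Epha3 was given 0.570 peaks by its masked bases and Epha6 2.42, so neither count came nearer to the one found.

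Purine repeats were counted in 2 ways, as tracts of overlapping GAGAGAGA matches on either strand and as unbroken runs of at least 24 purines or 24 pyrimidines. The EphA bodies held 432 GA tracts, of which 4 touched a peak (0.926%), and 387 runs, of which 7 did (1.81%). These were not all at separate peaks. Of the 4 GA tracts, 2 were at the Epha3 intron 5 peak, and of the 7 runs, 4 were at the Epha3 intron 2 peak. GA tracts were densest in Epha8, at 43.8 per 100 kb, in a gene whose nearest peak was 476.8 kb away. They reached 32.5 per 100 kb in Epha4, 27.8 in Epha3, 27.1 in Epha10, 21.2 in Epha5, 17.96 in Epha6, 14.2 in Epha2, 13.0 in Epha7 and 6.76 in Epha1. Runs were densest in Epha10, at 43.4 per 100 kb, also without a peak, followed by Epha4 at 27.0 and Epha3 at 21.2. Epha6 held more GA tracts than any other EphA gene (171, against 89 in Epha3 and 48 in Epha4) and had 1 peak. Counted as single matches rather than tracts, Epha3 (157.2 per 100 kb) was at percentile 89.7 of its length class and Epha4 (152.1) at 85.6, while Epha8 (200.7) was at 88.7 and Epha10 (157.2) at 84.3, both without a peak. Epha6 (94.7) was at 20.4, and Epha7 (106.9), without a peak, was at 65.2.

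**Figure D3:**
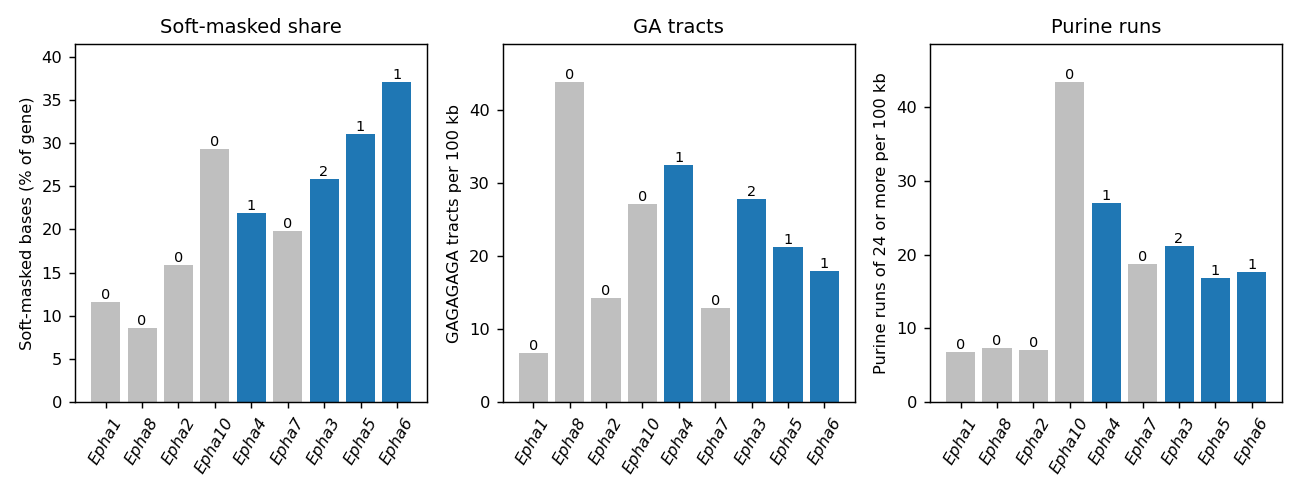
Bars give, for the 9 EphA genes ordered by length from left to right, the soft-masked share of the gene body in percent, the GAGAGAGA tracts per 100 kb and the purine or pyrimidine runs of at least 24 bases per 100 kb, with the number of body peaks on each bar and genes with a peak in blue. The masked share is highest in Epha6 (37.0%), whereas GA tracts are densest in Epha8 (43.8 per 100 kb) and runs in Epha10 (43.4 per 100 kb), both without a peak.

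Most long repeats had no peak, but the GA tracts that touched one were mainly long. Of 52 GA tracts of 40 bases or more, 3 touched a peak, whereas over all 432 tracts 4 did, so that 1 of the 4 was shorter. That tract, of 16 bases, was at the same Epha3 intron 5 peak as a tract of 56 bases. By gene, 1 of 11 long GA tracts touched a peak in Epha3, 1 of 4 in Epha4 and 1 of 20 in Epha6, and 0 of 9 did in Epha5 and 0 of 5 in Epha7. Of 182 runs of 40 bases or more 4 touched a peak, against 7 of all 387. The longest GA tract of the EphA genes, 88 bases in Epha6, was 68.8 kb from a peak, and the longest run, 292 bases in Epha5, was 269.7 kb from one.

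Seen from the peaks, however, purine repeats were frequent. GAGAGAGA was found in 3 of the 5 body peaks (60%, Wilson 95% interval 23.1 to 88.2%), the peaks of Epha3 intron 5, Epha4 and Epha6. All peaks of the list held it in 16.05% (15.2 to 17.0%), those in protein-coding bodies in 17.3% (15.9 to 18.9%), and windows of 185 bases, the median peak width, along the EphA bodies in 3.02% (2.72 to 3.36%). The EphA share rests on 5 peaks, and with the Epha1 peak it was 3 of 6 (50%, 18.8 to 81.2%). A run of at least 24 purines or pyrimidines was found in 4 of 5 (80%, 37.6 to 96.4%), the same 3 peaks and that of Epha3 intron 2. It was found in 25.0% of all peaks (24.02 to 26.1%) and in 3.34% of the windows (3.02 to 3.69%). CACACACA was in 0 of the 5 body peaks and in the Epha1 peak, against 13.4% of all peaks and 5.39% of the windows, and 0 of 5 leaves room for a share of up to 43.4%.

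The peaks were masked more than the genes around them. Their soft-masked share was 100% in Epha3 intron 2 and Epha5, 83.5% in Epha3 intron 5, 83.3% in Epha6, 42.8% at Epha1 and 29.9% in Epha4. The median of the 5 body peaks was 83.5%, against 20.0% for windows of the EphA bodies, 51.6% for peaks in protein-coding bodies and 82.2% for all peaks. Even the Epha4 peak, the least masked, was masked more than 75.1% of the windows of its own gene, and for the other body peaks this figure was between 82.2% and 94.9%.

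The 2 Epha3 peaks held different repeats. The intron 5 peak held GAGAGAGA, and the intron 2 peak did not. In intron 2 the plus strand was a repeat of purine triplets with scattered C, 93.1% purine and 66.8% GC, in which T was absent (0%), and GAGAGAGA had 0 matches. Of its bases, 88.5% equalled the base 3 positions further on. It lay inside a masked block of 1755 bases, against 166 bases for the block at intron 5. In the Epha6 peak the GA tract was on the plus strand, which is CT on the strand of the gene. The Epha4 peak also had GA on the plus strand, with 8 matches at its right end, and otherwise mostly unmasked sequence. The Epha5 peak had neither repeat, and its longest run was 12 bases. It lay in a masked block of 859 bases.

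**Figure D4:**
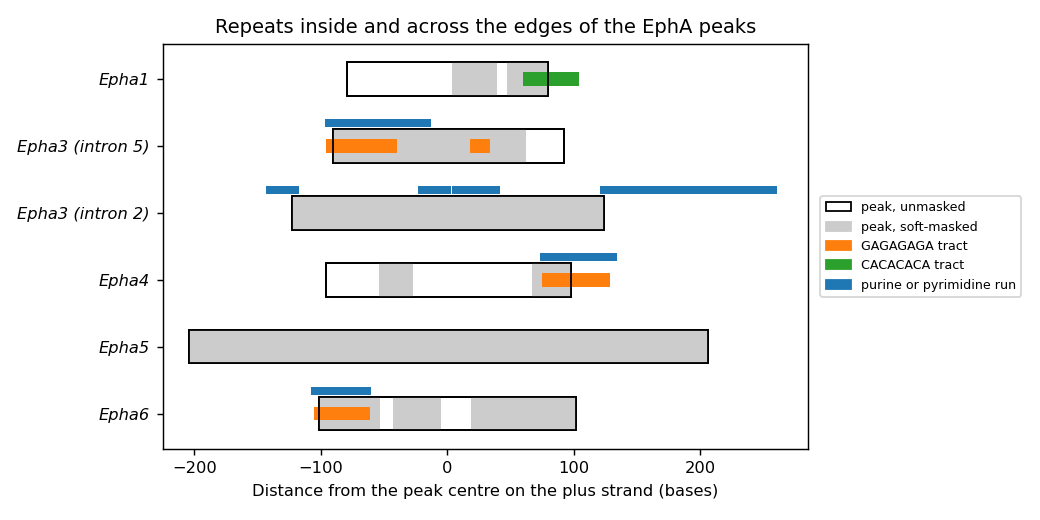
Each of the 6 peaks is drawn to scale around its centre (horizontal axis in bases, plus strand), with soft-masked bases in grey, unmasked bases in white, GAGAGAGA tracts in orange, the CACACACA tract in green and purine or pyrimidine runs of at least 24 bases in blue. In Epha1, Epha4, Epha6 and Epha3 intron 5 a dinucleotide tract crosses 1 edge of the peak, and the Epha5 peak has none.

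In 4 of the 6 peaks a dinucleotide tract lay across an edge, and none covered the centre. The Epha3 intron 5 peak also held a second, shorter GA tract wholly inside. For 3 of the 4 the edge is given as 40 bases inside the peak and 40 outside it on the plus strand, and here the capitals mark the bases outside the peak. In order, the windows were chr1:77397129-77397208, chr16:60464876-60464955 and chr6:42353934-42354013.
Epha4, right edge: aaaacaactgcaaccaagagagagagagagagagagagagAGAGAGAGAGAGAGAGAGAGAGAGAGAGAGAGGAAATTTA
Epha6, left edge: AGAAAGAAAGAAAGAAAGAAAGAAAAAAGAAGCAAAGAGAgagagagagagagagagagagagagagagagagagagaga
Epha1, right edge: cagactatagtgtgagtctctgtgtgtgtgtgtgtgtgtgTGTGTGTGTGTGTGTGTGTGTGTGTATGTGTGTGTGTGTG

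The GA tract of Epha4 was 54 bases long, with 23 inside the peak and 31 outside, and that of Epha6 was 44 bases, with 40 inside and 4 outside. The CA tract at Epha1 was 44 bases, with 20 inside and 24 outside. The triplet repeat of Epha3 intron 2 ran past both edges, and a run of 140 purines began 3 bases before its right end. Over the whole list, matches near the ends of the peaks were counted instead, without asking whether a tract crossed the edge. Of 1063 peaks with GAGAGAGA, 375 had a match whole in the first 10 bases of the peak, 332 in the last 10, and 66 (6.21%) in the middle 10, and 705 (66.3%) had one at either end. Of 888 peaks with CACACACA, 307 had a match in the first 10 bases, 292 in the last 10, and 37 (4.17%) in the middle 10.

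The peaks also differed in how often their sequence recurs in the genome. For each stretch of 32 bases in a peak, called a word, the copies over the 21 placed chromosomes were counted, either strand included. Every matching position counted as a copy, so shifted matches within 1 repeat tract counted separately and copies need not be separate sites. A word with more than 1 copy was called multi-copy. In Epha3 intron 2 all 216 words were multi-copy, with a median of 200 copies. In the Epha5 peak 339 of 379 (89.4%) were, with a median of 3394, the highest of the 6. In Epha3 intron 5 it was 93 of 151 (61.6%), with a median of 10, and in Epha6 30 of 172 (17.4%), with a median of 1. In the peaks of Epha4 (163 words) and Epha1 (128 words) 0 were. Of all peaks of the list, 14.6% had no multi-copy word and 32.2% had only such words, and of those in protein-coding bodies 22.5% and 22.8%. The Epha3 intron 2 peak thus held no word of this length with a single matching position, and the Epha4 and Epha1 peaks held no other kind. How many of the matches of the Epha3 intron 2 peak lay within its own repeat was not counted. Words were taken inside the peaks only. There the GA tract of Epha4 had 23 bases and the CA tract of Epha1 20, so no word could consist of the tract alone. The treatment of reads that align equally well at more than 1 place is not given in the sources used here.

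The peaks differed in how many others of the list they shared words with. The Epha5 peak shared at least 1 word with 620 other peaks of the list (9.36%), and only 1 of these held GAGAGAGA. The Epha3 intron 5 peak shared words with 463 (6.99%) and the Epha6 peak with 462 (6.98%), and these 2 shared words with each other, the only pair of the 6 to do so. Of the peaks sharing words with them, 461 and 462 held GAGAGAGA. A peak that shares a word holding GAGAGAGA must hold it too, so these counts are not independent of the words shared. In both of these EphA peaks, the word with the most copies had 817425 matching positions in the genome, overlapping matches within a tract included. The Epha3 intron 2 peak shared words with 56 (0.846%), of which 0 held GAGAGAGA. The peaks of Epha4, which also held GAGAGAGA, and Epha1 shared none. With 23 and 20 bases of their tracts inside the peak, fewer than the 32 of a word, they could not share a word of the tract alone. Of all peaks, 28.2% shared none.

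Relatives and ligands of the EphA receptors were counted in the same way. Of all protein-coding genes 8.9% held a peak in the body. The lists differ in gene length, so their shares are not comparable as they stand. Median length was 147.9 kb for EphA, 28.6 kb for EphB, 9.41 kb for ephrin-A, 12.9 kb for ephrin-B and 71.6 kb for other receptor tyrosine kinases. Of the 5 EphB receptors, which bind mainly the transmembrane ephrin-B ligands, 1 held a peak, Ephb1 with 1 peak in 432.6 kb, and the list had 1.46 peaks per Mb (0.0371 to 8.16). Of the 5 ephrin-A ligand genes, 1 did, Efna5 with 1 peak in 277.1 kb, at 3.22 per Mb (0.0815 to 17.9). The 3 ephrin-B genes, which cover 0.0628 Mb, held 0 (up to 58.8 per Mb). Among 38 other receptor tyrosine kinases 10 held a peak (26.3%), with 22 peaks and 2.60 per Mb (1.63 to 3.94). Of these 22, 10 were in Fgfr2, a fibroblast growth factor receptor whose GENCODE body spans 2961 kb, while the RefSeq body of 104.4 kb held 1. Erbb4, the neuregulin receptor, held 3 and Ptk7 held 2, and Ntrk2, Ror2, Alk, Met, Flt3, Kdr and Ros1 held 1 each. With RefSeq bodies the 38 genes held 13 peaks, or 2.41 per Mb. The intervals of the EphA genes and of each of these lists overlapped.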

How the data were processed

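Hearts of 1 ChIP pool and its input were sequenced. By the methods of the study, the authors mapped reads with Bowtie2 on mm10, discarded duplicates and reads of poor quality, and ran MACS within Strand NGS. The deposited list holds only peak positions, without any score or height. Its header names a p-value cutoff looser than that of the methods, and which of them applied is not known. Reads were not used here, so the depth is unknown. The handling of multiply aligning reads is not given in the sources used here.

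Positions were read on GRCm38.p6 and counted from 1. Gene bodies came from GENCODE M21, with RefSeq bodies of the same assembly as the alternative, and intron numbers refer to the transcript with the most exonic bases. An overlap of 1 base counted. GAGAGAGA and CACACACA were searched on both strands as exact matches, and tracts are merged overlapping matches. Counts carry exact Poisson intervals and shares Wilson intervals, both at 95%. No test was made, as there is 1 ChIP library. Scripts ran under Python 3.11.15 with numpy 2.4.6, pandas 2.3.3, scipy 1.17.1 and matplotlib 3.10.9, and counting was tested on simulated data. All 9 EphA genes are named, and of the comparison lists those with a peak in the body. Members and lists were chosen with earlier results of these data known. Alternatives varied the peak list, gene bounds, window, reference density and repeat definition. The sequence of 1 of the 6 peaks is not reported here.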

Additional observations from a re-analysis of the deposited data

How the results depend on the processing

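The 5 body peaks became 4 with the 3233 peaks wider than the median alone, since the Epha3 intron 5 peak, at 182 bases, was left out and Epha3 kept 1, and stayed at 5 with peaks within 1 kb merged, with midpoints and with RefSeq bounds. The number of EphA genes with a peak was 4 in each of these. The 6 peaks within 50 kb were 6 with a window of 5 kb and 8 with 100 kb. With the wider peaks alone they were 4, since the Epha1 peak was left out as well. The nearest peak to Epha1 was then 260.6 kb away. The ratio to the density of the list ranged from 0.695 without Epha3, a setting chosen after seeing the data, to 1.60 with wider peaks. The share of body peaks with GAGAGAGA was 80% when 1 mismatch was allowed (35.7% of all peaks, 20.6% of windows of the EphA bodies) and 60% with a 12-base repeat (13.2% of all peaks), and that with a run was 80% at 16 bases and 60% at 32. No paired analysis was possible because the ChIP was made on a single pool. With 5 peaks, the intervals of the EphA gene densities overlapped, and differences between the genes in density were not tested.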
